A study of Mus musculus with 12 samples.

Results

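Expression of 10 genes of the thioredoxin pathway was followed in mouse colonoids with and without hemin: thioredoxin (*Txn1*), its reductases *Txnrd1* and *Txnrd2*, sulfiredoxin (*Srxn1*) and the 6 peroxiredoxins *Prdx1* to *Prdx6*. They were chosen by symbol, and all 10 were found among the 54532 genes of the deposited expression table. Thioredoxin is a small protein that passes electrons from NADPH, through thioredoxin reductase, to proteins with oxidised cysteines. Peroxiredoxins use such electrons to reduce hydrogen peroxide and other peroxides at a reactive cysteine, and sulfiredoxin repairs peroxiredoxins whose cysteine has been overoxidised. In the colon, where epithelial cells meet heme from food and from bleeding, several of these genes are known targets of NRF2, a transcription factor activated by oxidants and electrophiles.

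Colonoids are organoids grown from the stem cells of the colonic epithelium. The 12 libraries of poly-A RNA fall into 4 groups of 3, and the comparison asked how the response to heme changes when the heme-degrading enzyme HO-1 (*Hmox1*) is deleted in the epithelium. Control colonoids came from *Hmox1* fl/fl mice, whose *Hmox1* alleles are floxed but intact, and received vehicle or 200 µM hemin for 24 hours. The colonoids labelled KO came from *Hmox1* fl/fl mice with Cre under the Vil1 promoter, which is active along the epithelium of small and large intestine, and received vehicle or the same hemin treatment. The mice were on a C57BL/6 background and 8 to 12 weeks old. For replicate 3 of the hemin-treated KO group the labels name floxed *Hmox1* and Vil1-Cre where those of the other KO libraries name *Hmox1* KO and Vil1-Cre. The labels do not tell whether the 3 libraries of a group came from separate mice or cultures, so the p-values below measure the spread between libraries, which may be technical.

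Each library had between 11648801 and 25101868 fragments assigned to genes, with the hemin-treated controls the shallowest group and replicate 2 of the hemin-treated KO group the deepest library. All 8 markers of colon epithelium that were looked at lay above an FPKM of 1 in every library, while *Dcn* of the mesenchyme was at 0 throughout. The 5 mesenchyme markers summed to at most 0.138 FPKM, the 3 endothelial ones to at most 0.192 FPKM and the 5 leukocyte ones to between 0.829 and 5.17 FPKM. The targeted gene ran with its label under vehicle and against it under hemin. *Hmox1* was at 7.62, 6.85 and 7.90 FPKM in vehicle-treated controls and at 3.14, 2.11 and 2.31 FPKM in those labelled KO, but with hemin it reached 503, 483 and 382 FPKM in controls and 1279, 1393 and 1271 FPKM in those labelled KO. A gene-level value does not show which exons the fragments cover, and each direction between the genotypes given here rests on the label. In 3 groups 1 library stood apart in *mt-Co1*, a mitochondrial transcript: replicate 1 of the vehicle-treated controls, replicate 3 of the hemin-treated controls and replicate 2 of the hemin-treated KO group, at 1.27, 1.41 and 1.17 times the next library. In each of these 3 libraries *Prdx1* was the highest and *Prdx5* and *Txnrd2* the lowest of the group, and counts without the 3 libraries are given beside the main ones.

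FPKM, fragments scaled to gene length and to the size of the library, set levels of different genes side by side only as far as the length used fits the transcripts expressed. That length was 1051 bases for *Txn1*, with 1 annotated transcript, and 7086 bases for *Txnrd1*, with 8. Which transcripts were expressed was not looked at, and orders and shares between genes rest on these lengths. In vehicle-treated controls the highest level was that of *Txn1*, with a mean of 1071 FPKM, and the order went down through *Prdx6*, *Prdx1*, *Prdx5*, *Prdx3*, *Prdx2*, *Txnrd1* and *Srxn1* to *Prdx4* at 10.6 FPKM and *Txnrd2* at 3.10 FPKM. The libraries of *Prdx5* and *Prdx3* overlapped in this order, and those of the other neighbours did not. In hemin-treated colonoids labelled KO the order was *Txn1*, *Prdx1*, *Prdx6*, *Srxn1*, *Prdx5*, *Txnrd1*, *Prdx3*, *Prdx2*, *Prdx4* and *Txnrd2*, from 2013 to 1.91 FPKM, with no overlap between neighbours. *Srxn1* was the eighth of the 10 genes in level in both vehicle groups, the fifth in hemin-treated controls, where it overlapped with *Prdx5*, and the fourth in hemin-treated colonoids labelled KO. All 10 genes passed the filter of at least 1 FPKM in at least 3 libraries and were among the 12740 genes tested.

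**Figure D1:**
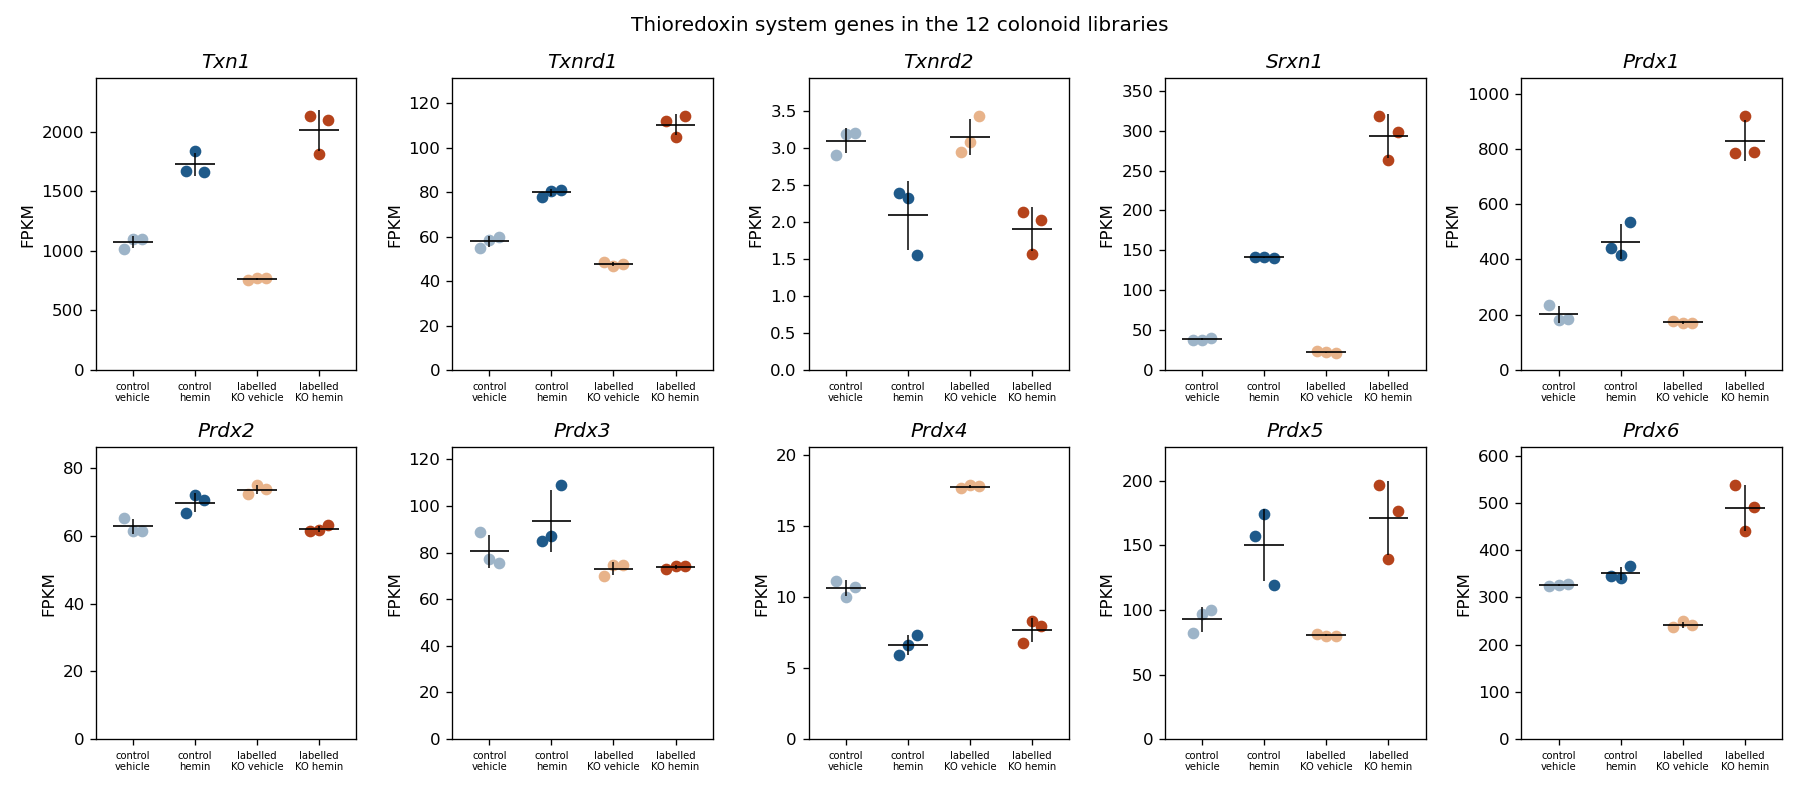
FPKM of the 10 genes in each library, 1 panel per gene with its own axis from 0. Points are libraries, horizontal lines the means of 3 libraries and vertical lines the SD. *Srxn1*, *Prdx1*, *Txn1* and *Txnrd1* stood highest, by their means, in the hemin-treated colonoids labelled KO, whereas *Prdx4* stood highest in their vehicle-treated counterparts at 17.7 to 17.9 FPKM.

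Differences were tested with limma on log2(FPKM + 1), with p-values adjusted by the Benjamini-Hochberg method over all 12740 genes, and a gene passed at an adjusted p under 0.05. With hemin, 6 of the 10 genes rose in controls and 2 fell, where 23.2% of all genes tested rose and 26.7% fell. In colonoids labelled KO, 6 rose and 3 fell, against 29.9% and 30.4% of all genes. The 5 genes that rose in both were *Txn1*, *Txnrd1*, *Srxn1*, *Prdx1* and *Prdx5*, the 2 that fell in both were *Txnrd2* and *Prdx4*, and *Prdx2* moved up in controls and down in colonoids labelled KO. Their median change with hemin on the log2 scale was 0.33 in controls and 1.04 for the KO label, and that of all genes tested -0.0125 and -0.0019. Past a 2-fold change, 2 genes had risen and 0 fallen in controls, and 6 had risen and 1 fallen in colonoids labelled KO. Of all genes tested, 2.17% rose and 5.93% fell past this limit in controls, and 4.87% and 8.07% did so in colonoids labelled KO. Without the 3 libraries that stood apart, 7 genes rose and 2 fell in controls, and 6 rose and 3 fell in colonoids labelled KO. On the TPM scale, which gives every library the same total, *Txn1*, *Txnrd1*, *Prdx5* and *Prdx2* no longer passed in controls (adjusted p = 0.1, 0.31, 0.14 and 0.9). With 1 abundant RNA, *Gm23935*, left out of each library's TPM total, a setting added once the data had been seen, the first 3 passed and *Prdx2* did not, and 5 genes were higher and 2 lower. In bulk RNA a lower level cannot be split into fewer cells of a type and less RNA per cell.

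Thioredoxin itself, the electron carrier of the cytosol and nucleus, is encoded by *Txn1* (ENSMUSG00000028367, mm10, chr4:57943373-57956411, minus strand). In controls its level was 1013, 1101 and 1099 FPKM with vehicle and 1674, 1839 and 1662 FPKM with hemin. Libraries labelled KO had 756, 769 and 775 FPKM with vehicle and 2128, 1815 and 2096 FPKM with hemin. Every hemin library lay above every vehicle library of its genotype, and the lowest hemin library labelled KO lay within the range of the hemin-treated controls. *Txn1* rose 1.61-fold in controls (log2 0.69, SE 0.079, adjusted p = 3.5e-05) and 2.63-fold in colonoids labelled KO (log2 1.39, SE 0.079, adjusted p = 1.1e-07).

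Cytosolic thioredoxin reductase, the selenoprotein that recharges thioredoxin with electrons from NADPH, is encoded by *Txnrd1* (ENSMUSG00000020250, chr10:82833951-82897712, plus strand). Its level in controls was 55.0, 58.5 and 60.01 FPKM with vehicle and 77.9, 80.7 and 80.9 FPKM with hemin. The corresponding levels of colonoids labelled KO were 48.6, 46.7 and 47.5 FPKM with vehicle and 112, 105 and 114 FPKM with hemin. The 4 groups did not overlap. The rise with hemin was 1.38-fold in controls (log2 0.46, SE 0.055, adjusted p = 4.5e-05) and 2.32-fold in colonoids labelled KO (log2 1.20, SE 0.055, adjusted p = 2.2e-08).

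The mitochondrial reductase *Txnrd2* (ENSMUSG00000075704, chr16:18426384-18479073, plus strand) was the rarest of the 10 transcripts, with 80 to 254 fragments per library. It was at 2.91, 3.19 and 3.21 FPKM with vehicle and 2.39, 2.32 and 1.56 FPKM with hemin in controls. Libraries labelled KO had 2.95, 3.08 and 3.43 FPKM with vehicle and 2.13, 1.56 and 2.03 FPKM with hemin. All hemin libraries lay below all vehicle libraries. *Txnrd2* fell by 0.42 on the log2 scale in controls (SE 0.12, adjusted p = 0.012) and by 0.52 in colonoids labelled KO (SE 0.12, adjusted p = 0.0028), and the added 1 FPKM makes these values understate the change of so low a gene, whose means fell to 0.674 and 0.605 of the vehicle level. The cytosolic and the mitochondrial reductase thus went in opposite directions with hemin in both genotypes.

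Sulfiredoxin, which reduces overoxidised peroxiredoxins back to the active form at the cost of ATP, is encoded by *Srxn1* (ENSMUSG00000032802, chr2:152105516-152111376, plus strand). Its level in controls was 38.03, 38.2 and 40.6 FPKM with vehicle and 142, 142 and 141 FPKM with hemin. In colonoids labelled KO it was 23.3, 22.2 and 21.8 FPKM with vehicle and 318, 264 and 298 FPKM with hemin. The groups were far apart, with the lowest hemin library labelled KO well above the highest hemin control. *Srxn1* rose 3.63-fold in controls (log2 1.83, SE 0.069, adjusted p = 1.1e-08) and 13.1-fold in colonoids labelled KO (log2 3.65, SE 0.069, adjusted p = 5.1e-11). It had the highest fold change of the 10 genes in both genotypes.

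*Prdx1* (ENSMUSG00000028691, chr4:116685544-116700822, plus strand) encodes the main peroxiredoxin of the cytosol and nucleus, a substrate of sulfiredoxin. It was at 237, 182 and 185 FPKM with vehicle and 441, 417 and 535 FPKM with hemin in controls. The corresponding levels of colonoids labelled KO were 178, 170.3 and 170.3 FPKM with vehicle and 785, 918 and 789 FPKM with hemin. Each hemin library was above each vehicle library, and the hemin libraries labelled KO were above those of controls. The rise was 2.31-fold in controls (log2 1.20, SE 0.12, adjusted p = 1.2e-05) and 4.81-fold in colonoids labelled KO (log2 2.25, SE 0.12, adjusted p = 6.8e-08).

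*Srxn1*, *Prdx1* and *Txnrd1* are shown with the bases before their transcription starts. They were the 3 members whose promoter windows held the searched core of an antioxidant response element, a sequence that NRF2 binds with small MAF proteins. RefSeq windows on GRCm38.p6, from 250 bases before to 50 bases after a start, were matched by symbol for 9 of the 10 genes (not *Prdx6*) and gave 11 windows, since *Txnrd1* has several starts. Both strands were searched for the element core TGACNNNGC, found in 12.39% of all 32851 windows, and for the AP-1 core TGANTCA, found in 7.808% of them. Counted by gene, 13.99% of 27025 genes had the element core in a window and 8.973% the AP-1 core. The 250 bases before the start are chr2:152105274-152105523 for *Srxn1*, chr4:116685349-116685598 for *Prdx1* and chr10:82858956-82859205 for the second of the *Txnrd1* windows, all on the plus strand, with matches to either core in capitals.
Srxn1: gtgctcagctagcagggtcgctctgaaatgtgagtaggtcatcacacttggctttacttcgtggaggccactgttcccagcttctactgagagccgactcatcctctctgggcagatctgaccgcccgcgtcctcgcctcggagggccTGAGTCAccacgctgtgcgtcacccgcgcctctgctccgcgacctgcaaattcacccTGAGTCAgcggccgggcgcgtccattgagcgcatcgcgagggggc
Prdx1: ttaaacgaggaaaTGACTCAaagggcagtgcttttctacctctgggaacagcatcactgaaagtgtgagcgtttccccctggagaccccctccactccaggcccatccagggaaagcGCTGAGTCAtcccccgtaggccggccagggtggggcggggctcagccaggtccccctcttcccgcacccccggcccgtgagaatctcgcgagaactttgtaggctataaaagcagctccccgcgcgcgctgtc
Txnrd1: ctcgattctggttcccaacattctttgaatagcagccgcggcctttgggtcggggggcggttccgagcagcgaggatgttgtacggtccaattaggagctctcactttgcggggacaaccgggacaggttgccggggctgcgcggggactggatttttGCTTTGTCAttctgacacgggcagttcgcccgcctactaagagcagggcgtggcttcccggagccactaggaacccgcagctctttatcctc

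Positions are counted from the start as 0, with bases before it negative. In *Srxn1* the 2 AP-1 cores began at -102 and -45. With the gc that follows it, the core at -45 differs from the searched element core only by a G in place of its first C. The match to the element core lay past the start, on the opposite strand from 28 to 36. That site is printed with 10 bases on either side, from chr2:152105542-152105570, with the core in capitals.
Srxn1 site: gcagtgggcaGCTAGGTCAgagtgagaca

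In *Prdx1* the element core lay on the opposite strand from -133 to -125 and overlapped 1 of the 2 AP-1 cores, so that both matches share letters. In *Txnrd1* the core lay on the opposite strand from -92 to -84, with no AP-1 core in the window. The windows of *Txn1*, *Txnrd2*, *Prdx2*, *Prdx3*, *Prdx4* and *Prdx5* held neither core. A match is a string of letters and no measured binding. Other spellings of the element and enhancers outside these windows were not looked at.

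*Prdx2* (ENSMUSG00000005161, chr8:84969587-84974834, plus strand) encodes the other typical cytosolic peroxiredoxin. Its level in controls was 65.3, 61.5 and 61.5 FPKM with vehicle and 66.7, 72.1 and 70.5 FPKM with hemin. The levels in colonoids labelled KO were 72.2, 74.9 and 73.8 FPKM with vehicle and 61.3, 61.7 and 63.1 FPKM with hemin. The hemin libraries lay above the vehicle libraries in controls and below them in those labelled KO. The rise in controls was small (log2 0.15, SE 0.051, adjusted p = 0.03) and turned to -0.04 on the TPM scale, did not pass on it without *Gm23935* either, and the adjusted p became 0.099, 0.098 and 0.075 without replicate 2 or 3 of vehicle or replicate 2 of hemin. It became 0.15 with only the compared groups fitted and 0.063 with a replicate block. *Prdx2* fell in colonoids labelled KO, to 0.842 of the vehicle mean (log2 -0.24, SE 0.051, adjusted p = 0.0017). *Prdx2* shares 351 bases with *Junb* and 181 bases with *Rnaseh2a*, both on the opposite strand, and *Junb* stood at 71.8 to 102 FPKM. Whether the counting used strand is not given in the sources used here.

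The mitochondrial matrix peroxiredoxin, which takes electrons from the mitochondrial thioredoxin, is encoded by *Prdx3* (ENSMUSG00000024997, chr19:60864051-60874556, minus strand). It was at 88.7, 77.4 and 75.4 FPKM with vehicle and 84.8, 87.1 and 109 FPKM with hemin in controls. In colonoids labelled KO it was at 69.8, 74.5 and 74.8 FPKM with vehicle and 73.0, 74.2 and 74.4 FPKM with hemin. Hemin and vehicle libraries overlapped in both genotypes. *Prdx3* did not pass with hemin in controls (log2 0.21, SE 0.095, adjusted p = 0.09) or in colonoids labelled KO (log2 0.02, SE 0.095, adjusted p = 0.89). In controls it passed without replicate 1 of vehicle (adjusted p = 0.041), without replicate 1 of hemin (0.047) and without the 3 libraries that stood apart (0.012). Without replicate 3 of hemin the log2 value fell to 0.096 and did not pass.

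*Prdx4* (ENSMUSG00000025289, chrX:155323918-155340754, minus strand) encodes the peroxiredoxin of the endoplasmic reticulum, where it couples peroxide to the formation of disulfide bonds. In controls it was at 11.2, 10.0 and 10.7 FPKM with vehicle and 5.95, 6.63 and 7.36 FPKM with hemin. The levels in colonoids labelled KO were 17.7, 17.9 and 17.8 FPKM with vehicle and 6.76, 8.36 and 7.98 FPKM with hemin. Hemin libraries lay below vehicle libraries throughout, and the hemin groups of the 2 genotypes overlapped. *Prdx4* fell to 0.624 of the vehicle mean in controls (log2 -0.61, SE 0.085, adjusted p = 0.00015) and to 0.432 of it in colonoids labelled KO (log2 -1.12, SE 0.085, adjusted p = 9.5e-07).

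*Prdx5* (ENSMUSG00000024953, chr19:6906697-6910106, minus strand) encodes an atypical peroxiredoxin found in mitochondria, peroxisomes and cytosol. Its level in controls was 81.8, 96.5 and 100.05 FPKM with vehicle and 157, 175 and 119 FPKM with hemin. Those labelled KO had 81.6, 79.8 and 80.2 FPKM with vehicle and 196, 140 and 177 FPKM with hemin. Hemin libraries were higher than vehicle libraries in both genotypes, and the hemin groups overlapped. The rise was 1.62-fold in controls (log2 0.68, SE 0.15, adjusted p = 0.0033) and 2.12-fold in colonoids labelled KO (log2 1.06, SE 0.15, adjusted p = 0.00011). The gene shares 409 bases with *Trmt112* on the opposite strand, at 24.6 to 30.5 FPKM.

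The 1-Cys peroxiredoxin *Prdx6* (ENSMUSG00000026701, chr1:161240112-161251219, minus strand) reduces phospholipid hydroperoxides, and takes its electrons from glutathione rather than thioredoxin. In controls it was at 325, 326 and 329 FPKM with vehicle and 346, 341 and 366 FPKM with hemin. Libraries labelled KO had 237, 249 and 240.5 FPKM with vehicle and 537, 441 and 491 FPKM with hemin. The hemin libraries lay above the vehicle libraries in both genotypes, by a narrow margin in controls. *Prdx6* did not pass in controls (log2 0.10, SE 0.072, adjusted p = 0.27), where the value was -0.09 on the TPM scale, and rose 2.02-fold in colonoids labelled KO (log2 1.01, SE 0.072, adjusted p = 5.9e-07).

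**Figure D2:**
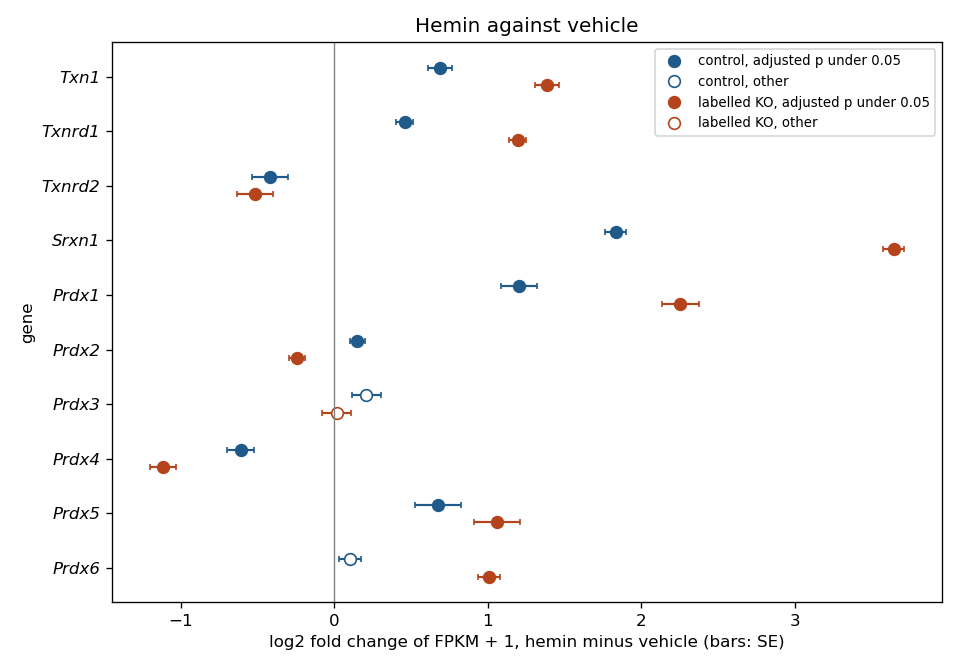
Log2 fold change of FPKM + 1 with hemin for each gene (horizontal axis), in controls (blue) and in colonoids labelled KO (orange). Bars are SE, and open points did not pass at an adjusted p of 0.05. The log2 values of *Srxn1* were 1.83 and 3.65, and *Prdx2* is the gene whose values, 0.15 and -0.24, both passed on opposite sides of 0.

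The interaction of genotype and hemin, the difference between the 2 hemin responses, passed for 5 genes as a higher log2 response in colonoids labelled KO and for 2 as a lower one, where 13.3% and 10.5% of all genes did so. The 5 were *Srxn1* (log2 1.81, SE 0.097, adjusted p = 7.9e-07), *Prdx1* (log2 1.05, SE 0.17, adjusted p = 0.0012), *Prdx6* (log2 0.91, SE 0.10, adjusted p = 0.00011), *Txnrd1* (log2 0.74, SE 0.077, adjusted p = 6.7e-05) and *Txn1* (log2 0.70, SE 0.11, adjusted p = 0.001). The 2 were *Prdx4* (log2 -0.51, SE 0.12, adjusted p = 0.011) and *Prdx2* (log2 -0.39, SE 0.072, adjusted p = 0.0026). *Txnrd2*, *Prdx3* and *Prdx5* did not pass, with log2 values of -0.10, -0.19 and 0.39 and adjusted p of 0.73, 0.35 and 0.23. Without the 3 libraries that stood apart, 6 genes passed as higher, *Prdx5* among them (adjusted p = 0.0049), and 2 as lower. On the TPM scale *Srxn1* and *Prdx1* were the 2 that passed, and *Txn1*, *Txnrd1*, *Prdx2*, *Prdx4* and *Prdx6* did not (adjusted p = 0.35, 0.23, 0.24, 0.16 and 0.13). Without *Gm23935* in the TPM totals all 7 passed, 5 as higher and 2 as lower.

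Each interaction joins a difference between the genotypes under vehicle and another under hemin, and the 2 parts had unequal weight from gene to gene. Under vehicle, 2 of the 10 genes were higher in colonoids labelled KO than in controls and 4 were lower, where 17.4% and 16.8% of all genes were. The lower genes were *Srxn1* at 0.576 of the control mean (log2 -0.77, SE 0.069, adjusted p = 6.5e-06), *Txn1* at 0.716 (log2 -0.48, SE 0.079, adjusted p = 0.00065), *Prdx6* at 0.741 (log2 -0.43, SE 0.072, adjusted p = 0.00077) and *Txnrd1* at 0.823 (log2 -0.28, SE 0.055, adjusted p = 0.0024). The higher genes were *Prdx4* at 1.67 times the control mean (log2 0.69, SE 0.085, adjusted p = 8.3e-05) and *Prdx2* at 1.17 times (log2 0.23, SE 0.051, adjusted p = 0.0052). For these 6 genes no library of 1 genotype overlapped those of the other, and how many of all genes separate in this way was not counted. *Prdx1* (log2 -0.21, SE 0.12, adjusted p = 0.22), *Prdx5* (log2 -0.20, SE 0.15, adjusted p = 0.36), *Prdx3* (log2 -0.14, SE 0.095, adjusted p = 0.31) and *Txnrd2* (log2 0.02, SE 0.12, adjusted p = 0.94) did not pass. The libraries labelled KO lay below the controls in *Prdx1*, *Prdx3* and *Prdx5* too, and overlapped them in *Txnrd2*. Without replicate 1 of the vehicle-treated controls the values of *Prdx1* and *Prdx3* were -0.088 and -0.065. No gene of the 10 reached a 2-fold difference under vehicle, where 3.53% of all genes were higher and 3.27% lower past this limit. The summed FPKM of the 8 epithelial markers was also lower there in colonoids labelled KO, between 4530 and 4599 against 6299 to 6855 in controls, and it was 6529 to 8052 in hemin-treated controls and 6215 to 7236 in hemin-treated colonoids labelled KO. The hemin and vehicle libraries did not overlap in this sum under the KO label and did in controls, and its part in the differences between genotypes, the hemin responses and the interaction was not tested. Without the 3 libraries that stood apart, 2 were higher and 5 lower, with *Prdx5* added (log2 -0.28, adjusted p = 0.0049). On the TPM scale *Srxn1* and *Prdx4* still passed, and *Txn1*, *Txnrd1*, *Prdx2* and *Prdx6* did not (adjusted p = 0.33, 0.68, 0.16 and 0.37). Without *Gm23935* in the TPM totals all 6 passed.

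Under hemin, 4 of the 10 genes were higher in colonoids labelled KO and 2 were lower, where 19.7% and 14.7% of all genes were. *Srxn1* was 2.07 times the control mean (log2 1.04, SE 0.069, adjusted p = 6.6e-07), and no other gene of the 10 was past 2-fold, where 3.1% of all genes were higher and 2.91% lower past this limit. *Prdx1* was 1.79 times the control mean (log2 0.84, SE 0.12, adjusted p = 0.00026), *Prdx6* 1.40 times (log2 0.48, SE 0.072, adjusted p = 0.00041) and *Txnrd1* 1.38 times (log2 0.46, SE 0.055, adjusted p = 6.6e-05). The hemin libraries of these 4 genes did not overlap between the genotypes, and the share of all genes without overlap was not counted here either. The lower genes were *Prdx3* (log2 -0.33, SE 0.095, adjusted p = 0.02) and *Prdx2* (log2 -0.17, SE 0.051, adjusted p = 0.027), and both calls depended on single libraries and on the fit. With only the compared groups fitted in limma neither passed (adjusted p = 0.083 and 0.14), and *Prdx2* did not pass with a replicate block (adjusted p = 0.06). Without the 3 libraries that stood apart, 5 genes were higher and 2 lower, and on the TPM scale only *Srxn1* and *Prdx1* passed. Without *Gm23935* in the TPM totals all 6 passed. *Prdx3* was at -0.22 without replicate 3 of the hemin-treated controls, where it still passed. It no longer passed without replicate 1 or 3 of the hemin-treated KO group (adjusted p = 0.059 and 0.053). *Prdx2* no longer passed without replicate 2 of the hemin-treated controls or without replicate 1, 2 or 3 of the hemin-treated KO group (adjusted p = 0.063, 0.083, 0.066 and 0.057).

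*Txn1* fell just short under hemin (log2 0.22, SE 0.079, adjusted p = 0.051), and passed without replicate 2 of the hemin-treated controls (adjusted p = 0.029), without replicate 2 of the hemin-treated KO group (0.013) and without the 3 libraries that stood apart (0.0033). With all libraries it passed in limma without an intensity trend (adjusted p = 0.044) and in limma-voom on the recovered fragments (0.027). *Prdx4* (log2 0.19, SE 0.085, adjusted p = 0.12) passed without replicate 3 of the hemin-treated controls (0.03) or replicate 1 of the hemin-treated KO group (0.038). *Prdx5* (log2 0.19, SE 0.15, adjusted p = 0.37) and *Txnrd2* (log2 -0.08, SE 0.12, adjusted p = 0.63) overlapped between the genotypes, and *Prdx5* was at 0.032 without replicate 3 of the hemin-treated controls and at 0.33 without replicate 2 of the hemin-treated KO group. *Srxn1*, *Txnrd1* and *Prdx6* were thus lower without hemin and higher with it in colonoids labelled KO, and *Prdx2* was higher without and lower with it. The 2 comparisons between genotypes use different libraries, while each shares its groups with the hemin comparisons above.

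**Figure D3:**
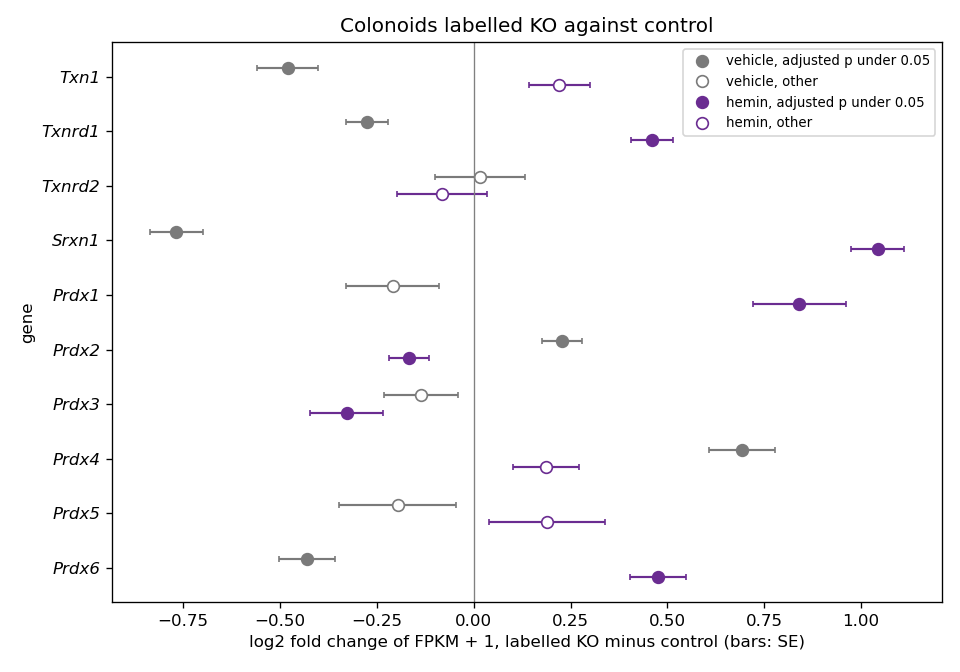
Log2 difference of FPKM + 1 between colonoids labelled KO and controls for each gene (horizontal axis), under vehicle (grey) and under hemin (purple). Bars are SE, and open points did not pass at an adjusted p of 0.05. *Srxn1* went from -0.77 under vehicle to 1.04 under hemin and *Prdx6* from -0.43 to 0.48, while *Prdx4* went from 0.69 to 0.19.

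The makeup of peroxiredoxin transcript was described by the share of each gene in the summed FPKM of *Prdx1* to *Prdx6*. These shares depend on the gene lengths used for FPKM. The sum was 775 ± 29.4 FPKM (SD, n = 3) in vehicle-treated controls and 1136 ± 62.3 in hemin-treated controls, and 660.1 ± 5.44 and 1635 ± 29.4 in colonoids labelled KO. No library of 1 group overlapped with another group in this sum. *Prdx6* held the largest share with vehicle, 42.2% ± 1.78 in controls and 36.7% ± 0.621 in colonoids labelled KO. With hemin its share was 30.9% ± 0.527 and 29.9% ± 2.83, and *Prdx1* held the largest, with 40.8% ± 3.23 in controls and 50.8% ± 4.49 in colonoids labelled KO. With vehicle the share of *Prdx1* had been 25.9% ± 2.92 and 26.2% ± 0.808, so it had nearly the same start in both genotypes. *Prdx1* shares ranged from 47.3% to 55.9% over the hemin libraries labelled KO, the highest in replicate 2, which stood apart in *mt-Co1*.

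*Prdx2* and *Prdx3* lost share with hemin while their own levels moved little. In colonoids labelled KO the share of *Prdx2* was 11.2% ± 0.136 with vehicle and 3.80% ± 0.129 with hemin, and that of *Prdx3* 11.1% ± 0.387 and 4.52% ± 0.122. *Prdx4*, the endoplasmic reticulum form, held 2.70% ± 0.0137 with vehicle and 0.471% ± 0.0557 with hemin. *Prdx5* stayed between 8.51% and 15.9% in all libraries.

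**Figure D4:**
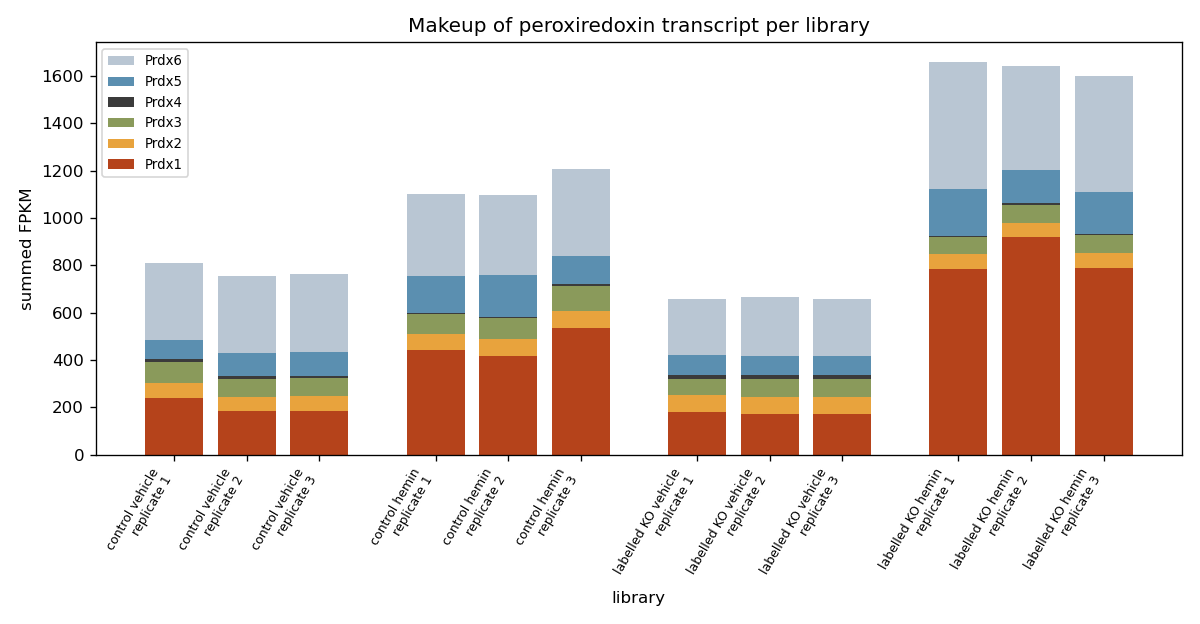
Summed FPKM of the 6 peroxiredoxin genes in each of the 12 libraries (vertical axis, from 0), with each gene as a segment of its bar. The sums lay between 656 and 809 FPKM with vehicle and between 1098 and 1660 FPKM with hemin, and the *Prdx1* segment is the widest in all hemin libraries.

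Related genes were set beside the 10 as lists, to be read against the shares of all genes that passed. Those shares were 23.2% rising and 26.7% falling with hemin in controls and 29.9% and 30.4% in colonoids labelled KO. Between the genotypes they were 17.4% higher and 16.8% lower under vehicle and 19.7% and 14.7% under hemin. Of 14 textbook NRF2 targets outside the 10, 13 rose with hemin in controls and 0 fell (median log2 1.07), and 14 rose in colonoids labelled KO (median log2 2.45). Between the genotypes, 10 were lower in colonoids labelled KO under vehicle and 0 higher, and 12 were higher and 1 lower under hemin. *Nqo1*, a quinone reductase, had the largest rise on the log2(FPKM + 1) scale with hemin in colonoids labelled KO (log2 4.71, SE 0.096, adjusted p = 5.3e-11). The means of *Me1* (0.113 to 9.59 FPKM) and *Slc7a11* (0.684 to 28.1 FPKM) rose by larger ratios than that of *Nqo1*, from levels that the added 1 FPKM compresses. *Slc7a11*, the cystine carrier of the plasma membrane, had the largest excess over controls under hemin (log2 1.40, SE 0.092, adjusted p = 6.8e-07), and *Me1*, a malic enzyme that makes NADPH, was the 1 lower gene (log2 -1.69, SE 0.11, adjusted p = 6.7e-07).

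Of 20 other thioredoxin-fold and thioredoxin-linked genes, 18 were tested. With hemin 7 rose and 3 fell in controls, and 8 rose and 3 fell in colonoids labelled KO, beside 23.2% and 26.7% of all genes in controls and 29.9% and 30.4% in colonoids labelled KO. *Txnip*, which binds and inhibits thioredoxin, rose from 223 ± 5.47 to 579.9 ± 39.2 FPKM in colonoids labelled KO (log2 1.38, SE 0.077, adjusted p = 1e-07). *Txndc5*, a disulfide isomerase of the endoplasmic reticulum, fell from 104 ± 2.69 to 32.3 ± 1.65 FPKM there (log2 -1.65, SE 0.082, adjusted p = 4e-08). Under hemin 7 of the 18 were higher in colonoids labelled KO and 0 lower, and under vehicle 5 were higher and 1 lower. Under hemin *Nxn*, nucleoredoxin, had the largest excess on the log2(FPKM + 1) scale (log2 0.70, SE 0.16, adjusted p = 0.006), while the low means of *Txndc16*, 0.680 against 0.286 FPKM, differed by a larger ratio than those of *Nxn*, 6.01 against 3.38 FPKM. Both were already higher in colonoids labelled KO under vehicle, *Nxn* by log2 1.03 (adjusted p = 0.00046) and *Txndc16* by log2 1.14 (adjusted p = 3e-06).

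Among 9 tested genes of thiol oxidation in the endoplasmic reticulum, where *Prdx4* works, 1 rose and 6 fell with hemin in controls (median log2 -0.58), and 2 rose and 5 fell in colonoids labelled KO (median log2 -0.53). *Qsox2*, a sulfhydryl oxidase, fell most in colonoids labelled KO (log2 -1.55, SE 0.061, adjusted p = 7.4e-09), while *P4hb*, protein disulfide isomerase, rose (log2 0.73, SE 0.048, adjusted p = 3e-07). Under vehicle 3 of the 9 were higher in colonoids labelled KO and 1 lower, and under hemin 4 were higher and 1 lower. *Qsox1* was the most different under hemin (log2 0.99, SE 0.10, adjusted p = 2.1e-05), and the lower gene was *Qsox2* (log2 -0.17, SE 0.061, adjusted p = 0.049). Already under vehicle *Qsox1* was higher in colonoids labelled KO (log2 1.27, adjusted p = 2.6e-06), and *Qsox2* was higher there (log2 0.31, adjusted p = 0.0024).

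Of 6 tested enzymes that take electrons from thioredoxin, 2 rose and 2 fell with hemin in controls, and 2 rose and 3 fell in colonoids labelled KO, which beside the shares of all genes is no result about so short a list. There *Msrb1*, a methionine sulfoxide reductase, rose (log2 1.098, SE 0.071, adjusted p = 2.7e-07), and *Rrm1*, the large subunit of ribonucleotide reductase, fell (log2 -1.102, SE 0.10, adjusted p = 4.9e-06). Between the hemin groups the small subunit *Rrm2* was higher in colonoids labelled KO (log2 1.48, SE 0.11, adjusted p = 1.7e-06) and the methionine sulfoxide reductase *Msra* lower (log2 -0.65, SE 0.10, adjusted p = 0.00045). *Rrm2* had fallen with hemin in both genotypes, from a mean of 34.7 to 11.4 FPKM in controls and from 41.3 to 33.3 FPKM in colonoids labelled KO. *Msra* was already lower in colonoids labelled KO under vehicle (log2 -0.75, adjusted p = 0.00015). Of the 4 glutaredoxins, which do similar work with glutathione, 2 rose and 1 fell with hemin in each genotype, and the same holds of that count. *Glrx* rose in colonoids labelled KO (log2 1.12, SE 0.10, adjusted p = 3.6e-06) yet stayed below the hemin-treated controls (log2 -0.84, SE 0.10, adjusted p = 7.9e-05), while *Glrx3* fell with hemin (log2 -0.38, SE 0.070, adjusted p = 0.00064) and was higher than in hemin-treated controls (log2 0.33, SE 0.070, adjusted p = 0.0033). The genotypes differed in the same directions under vehicle, by log2 -0.55 for *Glrx* (adjusted p = 0.0015) and 0.20 for *Glrx3* (adjusted p = 0.048).

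Of the 7 genes of selenoprotein synthesis, on which thioredoxin reductases depend, 2 rose and 1 fell with hemin in controls and 3 rose and 2 fell in colonoids labelled KO (all genes, 23.2% and 26.7%, then 29.9% and 30.4%), which in so short a list is no result about its members. The largest changes there were a rise of *Secisbp2* (log2 0.61, SE 0.075, adjusted p = 3.7e-05), which binds the selenocysteine element of messenger RNAs, and a fall of *Sephs1* (log2 -0.70, SE 0.089, adjusted p = 5e-05). *Pstk* was lower in colonoids labelled KO under hemin (log2 -0.30, SE 0.086, adjusted p = 0.02). Of the 3 sestrins, 1 rose with hemin in each genotype and 0 fell, which beside the same shares of all genes is no result about the list. It was *Sesn3*, with a log2 value of 0.45 in colonoids labelled KO (SE 0.11, adjusted p = 0.0037).

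**Figure D5:**
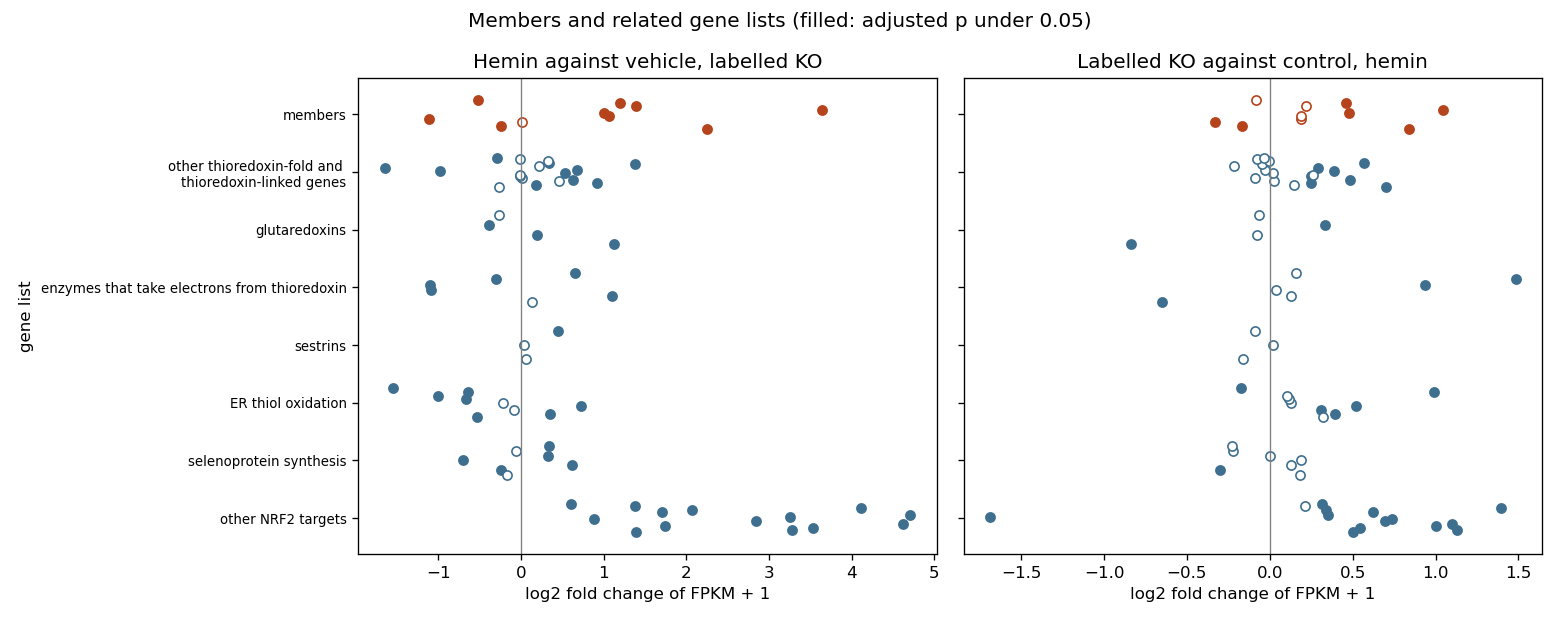
Log2 fold changes of FPKM + 1 (horizontal axes) for the 10 genes (orange) and the genes of the 7 related lists (blue), 1 point per gene, with hemin in colonoids labelled KO (left) and between the hemin groups (right). Filled points passed at an adjusted p of 0.05. All 14 other NRF2 targets lie above 0 at the left, and at the right *Me1* lies at -1.69.

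The genes whose log2(FPKM + 1) followed 5 of the members most closely over the 12 libraries were looked up as a description, with no test, since the libraries of a group share their treatment and genotype. For *Srxn1* they were *Zdhhc9*, *Anxa7* and *Fth1* (Pearson r = 0.997, 0.997 and 0.996). For *Txnrd1* they were *Zdhhc9*, *Anxa7* and *Abhd2* (0.996, 0.993 and 0.992), so that the first 2 were common to both. For *Txn1* they were *Pgd*, *F11r* and *Taldo1* (0.996, 0.995 and 0.994), of which *Pgd* and *Taldo1* encode enzymes of the pentose phosphate pathway, the source of much of the cell's NADPH. For *Prdx1* they were *Esd*, *Eps8* and *Atp6ap1* (0.995, 0.994 and 0.994), and for *Prdx4* *Cep68*, *Capn8* and *Dnajc10* (0.995, 0.992 and 0.990).

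Copies of the 10 genes found by symbol or description, which could take fragments from them, were nearly empty. Copies under other names were not looked up. The pseudogene *Txn-ps1* held at most 2 fragments in a library, and *Prdx6b* and *Prdx6-ps2* held 0 in all libraries. *Tdpx-ps1*, a pseudogene of a thioredoxin peroxidase found outside the rule for copies after values were seen, held at most 14.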

How the data were processed

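Expression values are FPKM, scaled to gene length and library size, as deposited by the authors in 1 table of 54532 genes and 12 libraries with coordinates and gene lengths. Library preparation, sequencing and bioinformatics were by Novogene, and the submitters' processing notes name fastp, HISAT2 2.0.5, featureCounts 1.5.0-p3 and mm10. Strand setting and normalization are not given in the sources used here. Dividing by the FPKM worth of 1 fragment gave whole numbers for all values (tolerance 0.01), so fragments per library could be recovered, and median-of-ratios factors were equal in all libraries, so the deposited FPKM carry a scaling between libraries.

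Genes with FPKM of at least 1 in at least 3 libraries (12740) were fitted with limma 3.58.1 (R 4.3.3) on log2(FPKM + 1), with 1 mean per group, 8 residual degrees of freedom, an intensity trend, two-sided tests and Benjamini-Hochberg adjustment. The added 1 makes fold changes of low genes too small. Fold values in the text are ratios of group means of FPKM. The fit was tested on simulated data. Members and lists were chosen with earlier results of these data known. Named by rule were the 10 genes, *Hmox1*, the genes with the largest rise and fall of each list that passed with hemin in colonoids labelled KO and between the hemin groups, copies of the members, and the 3 genes most correlated with *Srxn1*, *Txnrd1*, *Txn1*, *Prdx1* and *Prdx4*. Alternatives changed the pseudocount, filter, scaling, trend, groups fitted, block and libraries. The left-out set of 3 libraries was chosen after seeing the data, as the library of a group with over 1.1 times the *mt-Co1* FPKM of the next.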

Additional observations from a re-analysis of the deposited data

Results flagged for a closer look

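The hemin response of 7 of the 10 genes differed between the genotypes by the interaction of genotype and hemin in limma. It was higher in colonoids labelled KO for 5 and lower for 2, where 13.3% and 10.5% of all genes were called. On the log2 scale, as colonoids labelled KO minus controls, the difference was 1.81 for *Srxn1*, 1.05 for *Prdx1*, 0.91 for *Prdx6*, 0.74 for *Txnrd1*, 0.70 for *Txn1*, -0.51 for *Prdx4* and -0.39 for *Prdx2*. On the TPM scale only *Srxn1* and *Prdx1* still passed, and with *Gm23935* left out of the TPM totals all 7 did. *Prdx2* rose in controls and fell in colonoids labelled KO, but the rise was small and did not pass under 7 alternatives, and on the TPM scale it was -0.039, the same sign as under the KO label.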

How the results depend on the processing

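Of 1135 values of the 10 genes recomputed under alternatives, 1081 kept their direction and their side of the threshold, 31 lost and 12 gained the call, and 11 changed sign, 1 of which had passed. The cause of these changes was not tested unless named. On the TPM scale the median of all genes itself moved to -0.18 for hemin in controls and -0.31 under the KO label, 0.15 between the genotypes under vehicle and -0.12 in the interaction. Counts there were 2 higher with hemin in controls, 1 higher and 1 lower under vehicle, 2 higher and 0 lower under hemin, and 2 higher and 0 lower in the interaction. Of 50 values, 30 kept direction and call on the TPM scale and 47 with *Gm23935* left out of the totals, where 5 genes were higher with hemin in controls. TPM turned *Prdx2* (-0.039) and *Prdx6* (-0.091, and -0.006 without *Gm23935*, an abundant RNA, an alternative chosen after seeing the data) in hemin-treated controls, *Prdx3* with hemin under the KO label (-0.32, and -0.21 without *Gm23935*) and *Prdx3* under vehicle (0.011).

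A 2-fold limit left 2 higher and 0 lower in controls with hemin, 1 lower in colonoids labelled KO, 0 and 0 under vehicle, 1 and 0 under hemin, and 2 and 0 in the interaction. A mean of at least 5 FPKM left 1 lower with hemin in controls, since *Txnrd2* was not tested. With only the compared groups fitted, 0 genes were lower under hemin and *Prdx2* lost its rise with hemin in controls. Leaving out 1 library gave 0 to 2 lower genes there, moved *Prdx3* with hemin in colonoids labelled KO from -0.015 to 0.034, *Txnrd2* under vehicle from -0.032 to 0.0515 and *Txnrd2* under hemin from -0.21 to 0.0059. Without 1 library, *Prdx4* under hemin, which did not pass with all libraries, lay between 0.119 and 0.27, and the interactions that did not pass, of *Txnrd2*, *Prdx3* and *Prdx5*, between -0.23 and -0.010, -0.26 and -0.080, and 0.23 and 0.52. Without the 3 libraries that stood apart, *Txnrd2* under vehicle was at -0.019.

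Replicate numbers did not pair the libraries: the mean correlation of deviations was -0.043 for 18 pairs of the same number and 0.023 for 36 others. With a replicate block, 1 gene was lower under hemin and 5 were higher with hemin in controls, *Prdx2* losing both calls, and no other call changed. With 3 libraries per group and 80 to 254 fragments, counting precision was lowest for *Txnrd2*.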
